A study of Mus musculus with 5 samples.

Results

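Imprinted genes are expressed mainly from the copy inherited from 1 parent. The 36 mouse imprinted genes described here were chosen by symbol from a list of known loci, and all 36 were present among the 32285 genes of the deposited matrices. By textbook assignment 21 of them are expressed from the paternal and 15 from the maternal copy, although for a few (Grb10, Ddc, Ube3a, Gnas, Inpp5f) this holds only in some tissues or for some transcripts. RNA was measured in single cells of whole, dissociated lungs of E18.5 mouse embryos, shortly before birth, with 1 library per embryo. The 2 Het libraries (Het1 and Het2) came from Zswim8+/- embryos and the 3 KO libraries (KO1, KO2 and KO3) from Zswim8-/- embryos, so every embryo carried at least 1 mutant Zswim8 allele and no wild type was included. The type of allele and the mouse strain are not given in the sources used here. The libraries do not separate the parental copies, so every value below is the sum of both.

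ZSWIM8 is the substrate receptor of a ubiquitin ligase that removes Argonaute proteins when their microRNA pairs extensively with a target RNA, which leads to decay of the microRNA. Imprinted genes lie in clusters that are governed by control regions methylated in one germline, and in many clusters a noncoding RNA made from one copy accompanies silence of protein-coding neighbours on that copy. Many of them act on fetal growth: IGF2 is a growth factor, IGF2R takes it up for degradation, GRB10 dampens signalling by the insulin and IGF receptors, and CDKN1C stops the cell cycle. The comparison asked whether levels of these genes differed between Het and KO lungs, and in which cells.

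Several of these loci are also hosts of microRNAs. Of the 36 genes, 8 contain mature microRNAs on their own strand in RefSeq (GRCm38.p6): 26 in Mirg, 6 in Rian, 3 in Meg3 and 2 each in H19, Igf2, Mest, Rtl1 and Usp29. The microRNAs of H19, Igf2 and Mest are shown because the results below turn on those hosts, with the seed (bases 2 to 8) in capitals. The mature forms carry no poly(A) tail and were not counted in these libraries, so the values below are those of the host RNAs.
miR-675-5p: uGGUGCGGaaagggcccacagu
miR-675-3p: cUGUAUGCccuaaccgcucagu
miR-483-5p: aAGACGGGagaagagaagggag
miR-483-3p: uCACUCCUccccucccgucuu
miR-335-5p: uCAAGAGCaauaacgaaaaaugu
miR-335-3p: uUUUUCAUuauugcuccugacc
The first pair lies in H19 (chr7:142575529-142578143, GRCm38, minus strand, a long noncoding RNA), the second in Igf2 (chr7:142650766-142666816, minus strand) and the last in Mest (chr6:30723547-30748465, plus strand). No seed is shared among these 6, and over all 8 hosts the only shared seed was GGUUGCC, carried by 2 microRNAs of Mirg.

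The deposited matrices held 8722 to 13539 barcodes and 56608582 to 93708304 UMIs (unique molecular identifiers, each counting 1 RNA molecule) per library, and 3051 to 4634 cells per library were kept, with a median of 9722 to 12743 UMIs. Library pairs shared 17 to 44 barcodes, at most 0.427% of the smaller library. Zswim8 itself measured 37.3 and 39.2 CPM, its UMIs scaled to a common library total, in the pair of Het libraries. The KO libraries measured 38.8, 38.6 and 40.4 (adjusted p = 0.712). Values for libraries are always given in the order Het1, Het2, KO1, KO2, KO3. Counts at the 3′ end do not check a deletion elsewhere in the gene, so the KO libraries are called KO-labelled. Xist and Y-linked UMIs placed KO1 and KO2 as female and Het1, Het2 and KO3 as male, and sex is therefore partly confounded with genotype. Mesenchymal cells made up 12.3% and 14.4% of kept cells in the Het libraries and 26.4%, 16.9% and 21.4% in the KO-labelled ones, and epithelial cells 11.7% and 9.92% against 5.67%, 5.62% and 6.90%. Clusters that could be placed in no lineage held 14.3% to 21.2% of kept cells. Among them were a cluster led by Cldn18 and another led by Cyp2f2 and Scgb1a1, which are genes of epithelium. The epithelial shares leave these cells out and so do not measure all epithelium.

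Cells were grouped into classes by fixed marker genes, and a class is written X-like because the name rests on markers alone. In the Het libraries, 25 of the 36 genes reached their highest mean CPM in a mesenchymal class among 15 classes: 14 in adventitial fibroblast-like, 6 in mesothelial-like, 3 in myofibroblast-like and 2 in smooth muscle-like cells. A finer clustering gave 24. For 31 of the 36, the highest class and the next did not overlap between the Het libraries. The exceptions were H19, Slc22a18, Snhg14, Impact and Inpp5f.

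**Figure D1:**
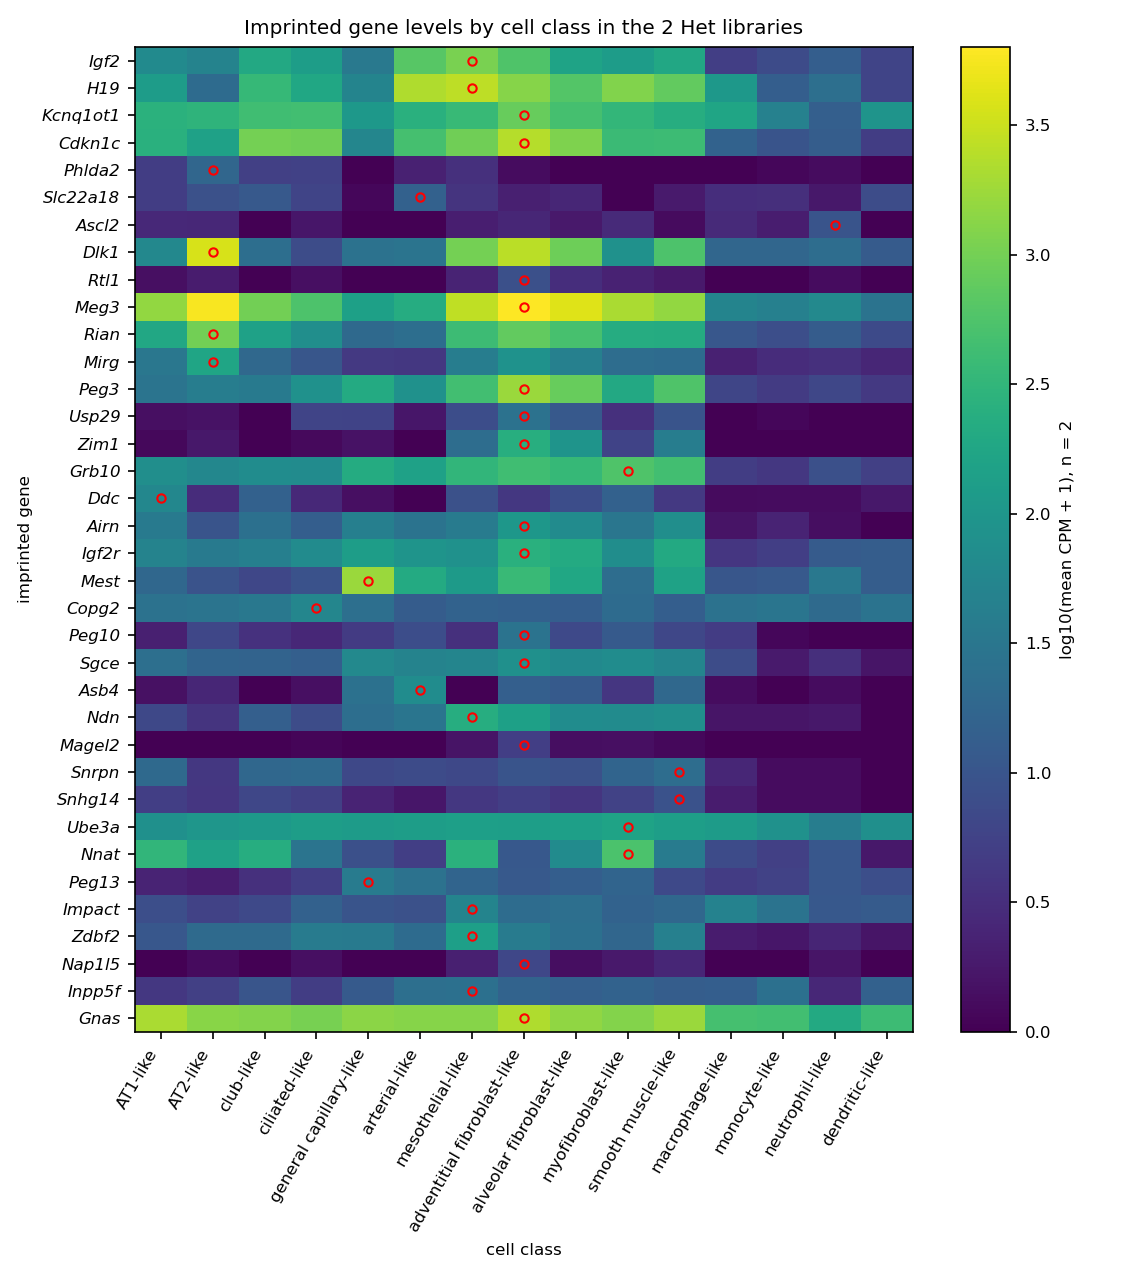
Mean CPM of each imprinted gene (rows) in 15 cell classes (columns), averaged over the 2 Het libraries and coloured as log10(CPM + 1), with a red circle on the highest class. Most circles fall in the mesenchymal columns (25 of 36), and the exceptions include Mest in general capillary-like and Dlk1 in AT2-like cells.

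Among the growth regulators, Igf2 was highest of the 15 classes in mesothelial-like cells, the outer lining of the lung, at 1098 CPM ± 320 (SD, n = 2). Arterial-like cells followed at 651 CPM ± 176. H19, the noncoding RNA that shares enhancers with Igf2, was highest in the same classes at 2678 CPM ± 630 and 2240 CPM ± 607, and these 2 classes overlapped. Lymphatic-like endothelial cells, 12 and 6 in the Het libraries, were too few to be among the 15 classes. They held more of both genes, 2527 and 3680 CPM of Igf2 and 5904 and 7852 CPM of H19. The lowest class was dendritic-like for H19 (5.08 CPM) and macrophage-like for Igf2 (4.07 CPM). Macrophage-like cells nevertheless held H19, at 103 and 110 CPM in the Het libraries beside 1.77 and 6.37 CPM of Igf2. Across the 15 classes the Het means of Igf2 and H19 had a Pearson correlation of 0.88 and a Spearman correlation of 0.89, as a description over classes that share libraries.
Cdkn1c was highest in adventitial fibroblast-like cells at 2418 CPM ± 109, then in alveolar fibroblast-like cells at 1174 CPM ± 105. Grb10 (chr11:11930508-12038683, minus strand) was highest in myofibroblast-like cells at 567 CPM ± 103. Igf2r was highest among the 15 classes in adventitial fibroblast-like cells at 260 CPM ± 1.33. A cluster with pericyte markers that could be placed in no lineage held more, 505 and 334 CPM of Igf2r. With finer clusters, pericyte-like cells were the highest class for Igf2r. Another cluster in no lineage, with Myl7 and Myh6 among its leading genes, held 630 and 448 CPM. Among the 15 classes, Igf2 and H19 were thus highest in mesothelial-like, Cdkn1c and Igf2r in adventitial fibroblast-like and Grb10 in myofibroblast-like cells.

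In the Dlk1-Dio3 cluster on chromosome 12, 3 of 5 genes were highest of the 15 classes in AT2-like cells. The others, Meg3 and Rtl1, were highest in adventitial fibroblast-like cells. Dlk1, a membrane protein related to Notch ligands, was highest in AT2-like cells, the surfactant-making cells, at 3798 CPM ± 68.2, above adventitial fibroblast-like cells at 2586 CPM ± 20.1. Its noncoding neighbours Rian (989 CPM ± 97.8) and Mirg (171 CPM ± 13.9) were also highest in AT2-like cells. A cell cluster placed in no lineage, with Cldn18 and Slc34a2 among its leading genes, held less of all of them. In the Het libraries it held 1350 and 1203 CPM of Dlk1, 515 and 468 of Rian and 81.0 and 93.7 of Mirg. Meg3 (chr12:109541001-109571726, plus strand) reached 6349 CPM ± 345 in adventitial fibroblast-like and 5859 CPM ± 268 in AT2-like cells. Rtl1, derived from a retrotransposon, was low, at 7.37 CPM ± 0.25 in adventitial fibroblast-like cells. AT1-like cells, the other alveolar epithelial class, held Meg3 at 1611 and 1519 TMM-scaled CPM but Dlk1 at only 65.9 and 55.5. Pairs were compared among the genes with enough Het UMIs, which left out Rtl1. Of these pairs, Meg3 and Rian followed each other most closely over the 15 classes (Pearson 0.99, Spearman 1.00). Meg3 and Mirg had a Pearson correlation of 0.97. Dlk1, transcribed from the opposite parental copy, had a Pearson correlation of 0.86 with Mirg.

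Single genes had their own sites. Mest, a hydrolase-like protein, was highest in general capillary-like endothelium at 1694 CPM ± 59.4, against 376 CPM ± 134 in the next class. Asb4, a ubiquitin ligase adaptor, was highest in arterial-like cells (69.2 CPM ± 3.73), Ddc, a decarboxylase, in AT1-like cells (57.4 CPM ± 1.25), and Phlda2 in AT2-like cells (17.3 CPM ± 1.12). Peg3 and its maternally expressed neighbour Zim1, both zinc finger genes, peaked together in adventitial fibroblast-like cells at 1692 CPM ± 33.9 and 240 CPM ± 1.53. Ascl2 was highest in neutrophil-like cells at 8.72 CPM ± 6.07, a level that rests on 26 UMIs.

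For 29 of the 36 genes RefSeq gave promoter windows (250 bases before to 50 after the start), 45 in all. TGCCGC, the letters that the imprint-maintaining zinc finger protein ZFP57 binds when methylated, was searched on both strands and occurred in 24.4% of these 45 windows and in 11.6% of all 32851 windows, and the median number of CpG dinucleotides was 13 against 7. A match is only a match of letters, and methylation was not measured. The windows of Mest (chr6:30737800-30738099, GRCm38.p6, plus strand, 2 matches) and Meg3 (chr12:109540746-109541045, plus strand, 1 match) are shown as the highest capillary gene and the highest fibroblast gene above, with the matches in capitals, where they read GCGGCA on the printed strand.
Mest: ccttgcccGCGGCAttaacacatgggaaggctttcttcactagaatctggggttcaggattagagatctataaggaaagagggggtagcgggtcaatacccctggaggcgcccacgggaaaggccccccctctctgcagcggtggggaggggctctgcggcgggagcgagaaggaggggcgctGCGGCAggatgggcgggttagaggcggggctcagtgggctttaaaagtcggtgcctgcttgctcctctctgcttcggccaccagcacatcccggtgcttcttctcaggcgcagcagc
Meg3: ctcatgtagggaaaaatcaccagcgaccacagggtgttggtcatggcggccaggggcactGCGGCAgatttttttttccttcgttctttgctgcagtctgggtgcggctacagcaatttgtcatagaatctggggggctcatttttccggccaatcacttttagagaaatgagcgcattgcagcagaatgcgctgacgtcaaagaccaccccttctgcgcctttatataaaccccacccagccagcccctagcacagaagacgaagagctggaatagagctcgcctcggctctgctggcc

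Het and KO-labelled lungs were compared with edgeR's quasi-likelihood test on UMIs summed per library. A gene is called at a Benjamini-Hochberg adjusted p under 0.05 over all genes tested, and the values per library that follow are CPM after TMM scaling. In the whole library, meaning the sum over its kept cells, 1 of the 36 genes was called, beside 4.11% of all 17743 genes tested. That gene was Grb10, at 97.1 and 113 CPM in the Het against 183, 145 and 159 CPM in the KO-labelled libraries. The groups did not overlap, and the log2 fold change was 0.63 (SE 0.117, adjusted p = 0.0459). Over the alternatives the change lay between 0.50 and 0.75 and the adjusted p reached 0.293. The call was lost without Het1 (0.293), Het2 (0.179), KO2 (0.0516) or KO3 (0.104), with the replicate number as a block (0.199), with sex as a covariate (0.237), and without erythroid and immune (0.0626) or mixed cells (0.0693). DESeq2 called 7 of the 36, beside 12.2% of all genes with an adjusted p by that tool.

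Of the 36, 30 had a positive log2 fold change, beside 51.0% of all genes tested, with a median of 0.23 beside 0.01. Groups did not overlap in 18, beside 46.7% of all genes, and 11 had an unadjusted p under 0.05, beside 25.6%. These last 2 shares are near those of all genes and are no result about imprinted genes. H19 stood at 243 and 346 CPM against 939, 550 and 641 (log2 fold change 1.27, SE 0.264, adjusted p = 0.0581). Igf2 stood at 95.4 and 133 against 322, 154 and 209 CPM (1.00, adjusted p = 0.128). The share of mesenchymal cells, where most of these genes are highest, was also higher in each KO-labelled library. More mesenchymal cells and more RNA per cell cannot be told apart in this sum.
Gnas, the stimulatory G protein subunit, stood at 1045 and 1120 against 1514, 1253 and 1488 CPM (0.39, adjusted p = 0.0862), and Cdkn1c at 297 and 332 against 506, 369 and 376 CPM (0.41, adjusted p = 0.168). Both were higher in every KO-labelled library.
Of the remaining genes of high level, 4 overlapped between the groups, and KO1 was the highest library for each. Meg3 stood at 1416 and 1389 against 1935, 1231 and 1321 CPM (0.09), and Rian at 209 and 200 against 278, 195 and 208 (0.15). Dlk1 stood at 547 and 523 against 748, 375 and 599 CPM (0.10), and Kcnq1ot1 at 313 and 284 against 332, 304 and 294 (0.05). Mest lay apart, at 215 and 225 against 272, 232 and 241 CPM (0.18, adjusted p = 0.231).

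**Figure D2:**
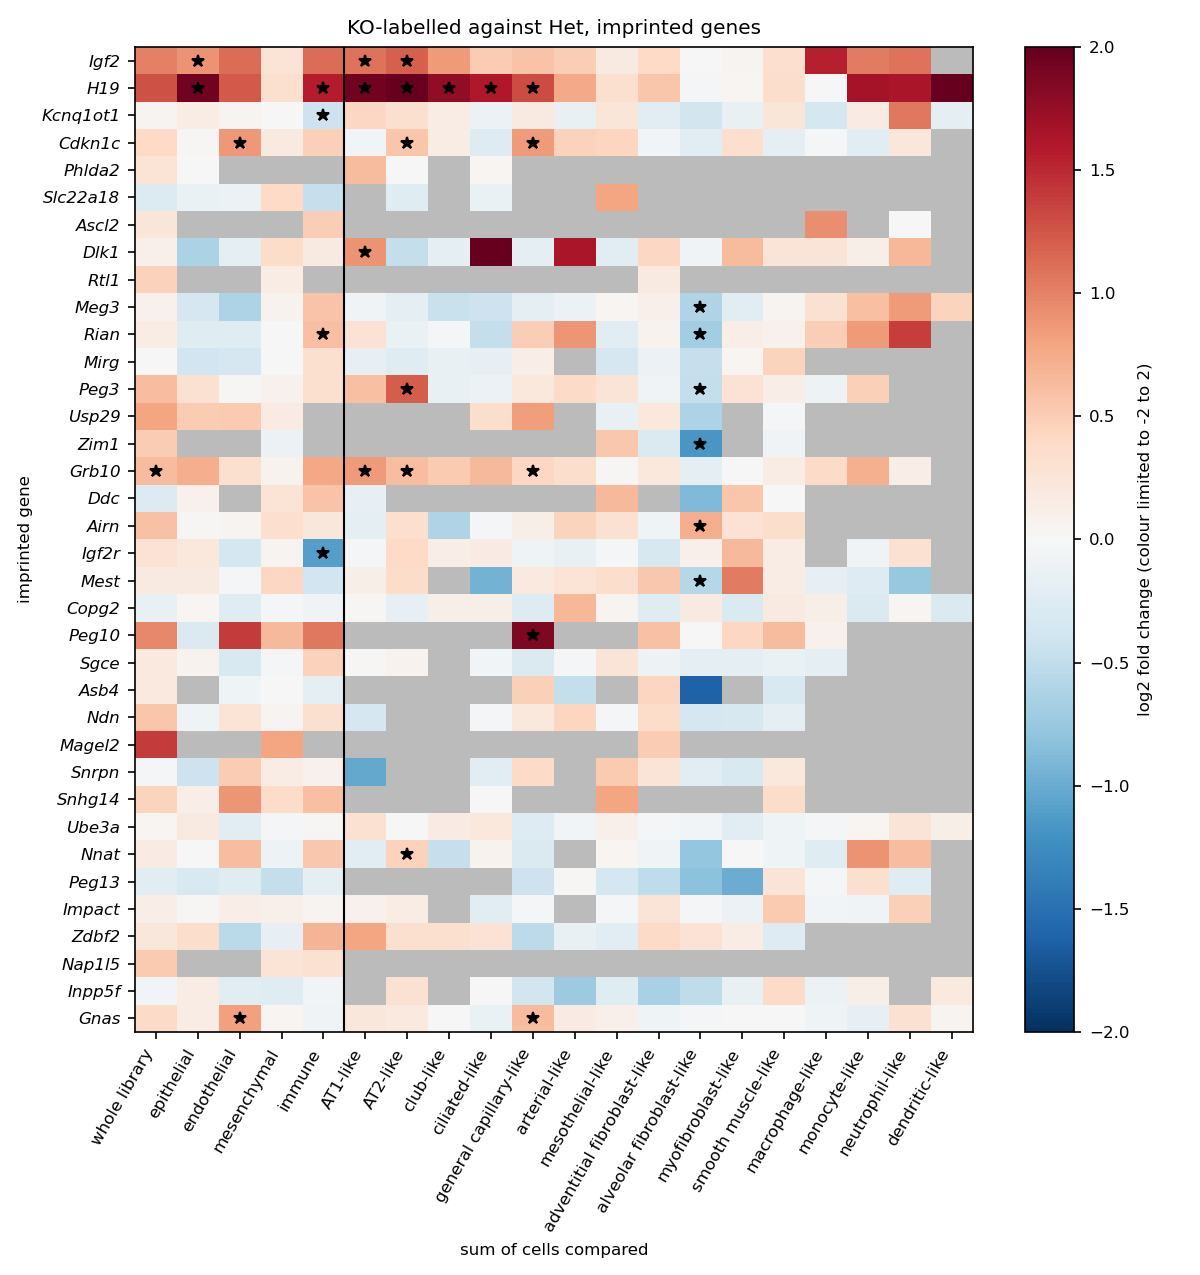
Log2 fold change of each imprinted gene (rows), KO-labelled against Het, in the whole library, the 4 lineage sums and 15 class sums (columns), with colour limited to -2 to 2, grey where the gene fell under the low-count filter and a star where it was called. H19 is starred in 7 columns, all higher, and the lower calls are in the immune and alveolar fibroblast-like columns.

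In epithelial sums 2 of 30 tested genes were called, beside 0.232% of all 12950 genes tested, and both belong to the Igf2-H19 locus. The share of all genes moved with the cells included: with coarser and finer clusters 1164 of 15044 and 1254 of 14247 were called. With doublets kept 1771 of 14230 were called, and without mixed cells 0 of 11816. H19 stood at 114 and 168 CPM in the Het libraries and at 526, 625 and 459 in the KO-labelled ones, and Igf2 at 94.8 and 103 against 211, 178 and 163. Neither overlapped. The log2 fold changes were 1.93 (SE 0.194, adjusted p = 0.0117) for H19 and 0.89 (SE 0.137, adjusted p = 0.0453) for Igf2. Igf2 lost its call when any of 4 libraries (Het1, Het2, KO1 or KO2) was left out, with adjusted p up to 0.382, and with sex as a covariate (0.0674). The other 28 had a range of directions, and the median over the 30 was 0.06 beside 0.01 for all genes. Ascl2, Rtl1, Zim1, Asb4, Magel2 and Nap1l5 fell under the filter.

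H19 was called in each of the 4 epithelial classes fitted. In AT1-like cells, the flat cells of gas exchange (66 to 216 cells per library), H19 stood at 104 and 153 CPM against 439, 515 and 515, and Igf2 at 62.0 and 70.7 against 165, 114 and 151. The log2 fold changes were 1.93 (SE 0.157, adjusted p = 1.13e-05) and 1.08 (SE 0.158, adjusted p = 0.000983). KO3, a male like the Het embryos, was as high as the 2 female KO-labelled libraries for H19. H19 was called under each of 15 alternatives, with the change between 1.68 and 2.23. Igf2 was lost in 1, without Het1 (adjusted p = 0.0594).
Dlk1 and Grb10 were also called in AT1-like cells, where 4 of 24 tested genes were, beside 4.16% of all genes tested. Dlk1 stood at 65.9 and 55.5 against 98.3, 149 and 86.7 CPM (0.89, adjusted p = 0.0158), and Grb10 at 65.9 and 85.1 against 120, 140 and 145 CPM (0.85, adjusted p = 0.00271). Neither overlapped, but the Dlk1 value became -0.19 (adjusted p = 0.702) with finer clusters and was not called without Het1, Het2 or KO2 (adjusted p 0.11, 0.235 and 0.0597). Grb10 was not called without Het1 (adjusted p = 0.145). With sex as a covariate neither was called (0.432 and 0.0612).

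AT2-like cells were fewer (213 and 130 in the Het libraries, 48, 41 and 92 in the KO-labelled ones), and their fit, like those of the other classes with under 50 cells in some library, was added after the data were seen. There 6 of 23 tested genes were called, beside 5.17% of all genes, and all 6 were higher. H19 stood at 18.1 and 25.9 CPM against 197, 88.7 and 132 (log2 fold change 2.66, SE 0.256, adjusted p = 5.06e-06). Among the 4 epithelial classes this was the lowest Het level of H19 and the largest fitted change; whether the change differed between classes was not tested. Igf2 stood at 46.9 and 57.7 CPM against 153, 110 and 103 (1.19, adjusted p = 0.000475).
Peg3 stood at 43.8 and 41.3 CPM against 103, 107 and 90.7 (1.21, adjusted p = 0.00011). H19, Igf2 and Peg3 were each called in all 14 alternatives. Cdkn1c (0.56), Grb10 (0.61) and, named after its values were seen, Nnat (0.47) were called with smaller changes, each lost without Het1 or Het2 and with sex as a covariate (0.0751, 0.447 and 0.265). Dlk1, highest in this class, stood at 4114 and 3956 against 3785, 1981 and 2964 CPM (adjusted p = 0.138).
The AT2-like cells differed in more than these genes. Of 15 cell cycle genes tested, 9 were called beside 5.17% of all genes and all were higher. They were led by Ccnb2 (3.66), Cenpf (3.57) and Ccnb1 (3.48), all of mitosis. Het levels of these leading genes were near the floor, at 1.59 and 1.49, 0.317 and 2.99, and 1.59 and 0.995 CPM. In KO1 Ccnb2 stood at only 5.00 CPM, against 28.8 and 22.5 in KO2 and KO3. The epithelial markers Epcam, Cdh1, Krt8, Krt18, Krt19, Nkx2-1 and Cldn4 summed to 1248 and 1294 CPM against 1855, 1618 and 1788. The part of these differences in the rise of H19, Igf2 and Peg3 was not tested. With library size alone in place of TMM scaling, the median of all genes in AT2-like cells moved to 0.15.

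In the airways H19 was the only one of the 36 called, in each class. Club-like cells, the secretory cells, held 279 and 489 CPM against 1096, 1425 and 1405 (1.77, SE 0.240, adjusted p = 0.0112), in 1 of 17 tested genes beside 0.194% of all genes. The mesenchymal markers of this class were higher too, at 22.8 and 39.1 against 68.1, 101 and 84.7 CPM (3 of 7 higher in all KO-labelled libraries, 1 at 0), and their part in the H19 value was not tested. Ciliated-like cells held 162 and 205 against 499, 776 and 391 CPM (1.61, SE 0.248, adjusted p = 0.0256), in 1 of 27 beside 0.165%. Both lost the call without Het1 or without KO2, with adjusted p from 0.0985 to 0.157, and ciliated-like cells also without Het2 (0.0839). With sex as a covariate neither was called (0.112 and 0.0711). A cluster of deeply sequenced cells in no lineage, with markers of both epithelium and endothelium, held H19 at 113 and 173 CPM against 370, 719 and 557. Its leading genes were Cldn18, Egfl6, Gm29966, Foxp2, Tinag and Slc34a2. Igf2 stood there at 45.9 and 58.3 against 134, 155 and 130 CPM, and Peg3 at 86.3 and 72.2 against 115, 108 and 94.9. Mest went the other way, at 518 and 516 against 125, 165 and 204 CPM. These values are without TMM scaling, and differences in this cluster were not tested. Because the cluster was placed in no lineage, its cells entered neither the epithelial nor the AT2-like sums.

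**Figure D3:**
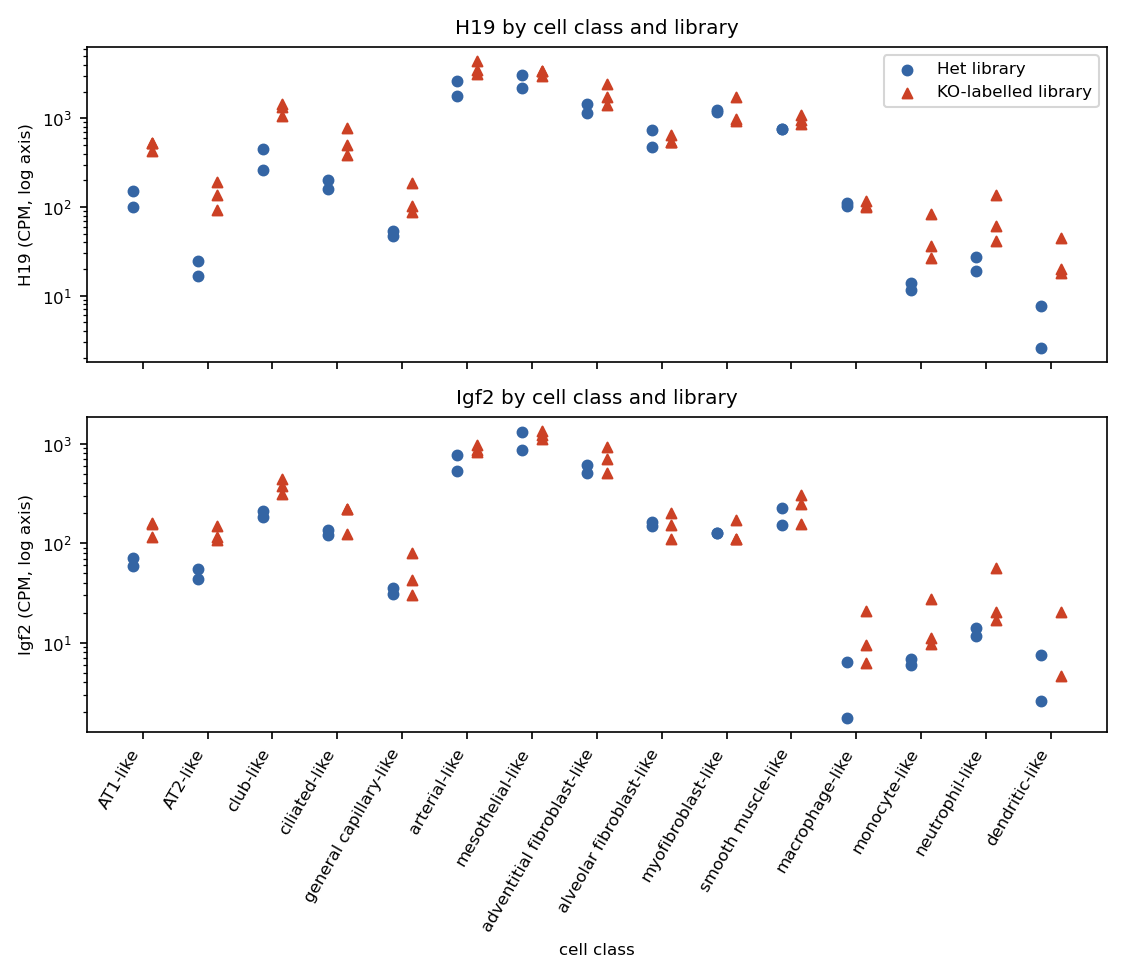
CPM of H19 (top) and Igf2 (bottom) on log axes in 15 cell classes, with 1 point per library (circles Het, triangles KO-labelled). The groups lie apart for H19 in AT1-like, AT2-like, club-like and ciliated-like cells and overlap in alveolar fibroblast-like and myofibroblast-like cells.

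The share of cells with an H19 UMI was higher as well. With every AT1-like cell thinned to 2000 UMIs, H19 was found in 11.4% (exact 95% interval 7.43% to 16.5%) of 211 cells in Het1 and 13.1% (8.76% to 18.6%) of 198 in Het2. In the KO-labelled libraries it was found in 31.8% (20.9% to 44.4%) of 66, 55.0% (43.5% to 66.2%) of 80 and 39.0% (30.1% to 48.4%) of 118 cells. Unthinned, the shares were 29.6% and 33.2% against 68.2%, 87.5% and 70.8%. Intervals cover counting error only, and 0 to 10 shallower cells per library were left out. In AT2-like cells the thinned shares were 2.84% and 3.85% against 39.1%, 17.1% and 13.04%. Here too the groups did not overlap.

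Free RNA was read from barcodes of red cells, on the assumption, not tested here, that red cells themselves hold none of these transcripts. H19 averaged 0.0835 and 0.0679 UMIs per red-cell barcode in the Het against 0.534, 0.147 and 0.213 in the KO-labelled libraries, at median depths of 2328 to 2622 UMIs. H19 in these barcodes was thus higher in each KO-labelled library and highest in KO1. AT1-like cells held 0.968 and 1.79 UMIs of H19 per cell against 4.06, 9.64 and 8.22, which is above the red-cell level in every library. Of the AT1-like H19 UMIs, 0.589% to 4.10% would be accounted for by free or attached mesenchymal RNA in the ratio of H19 to collagen UMIs of mesenchymal cells, and 1.94% to 11.4% of those in AT2-like cells. Summed mesenchymal markers were 96.6 and 57.3 CPM against 89.2, 53.6 and 89.1 in AT1-like cells, with none of the 7 higher in all KO-labelled libraries and none at 0. In AT2-like cells they were 21.6 and 46.7 against 62.3, 30.2 and 80.5 CPM, with none of the 7 higher in all KO-labelled libraries. In epithelial sums, leaving out cells with markers of another lineage gave H19 a change of 2.07 (adjusted p = 0.0907).

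**Figure D4:**
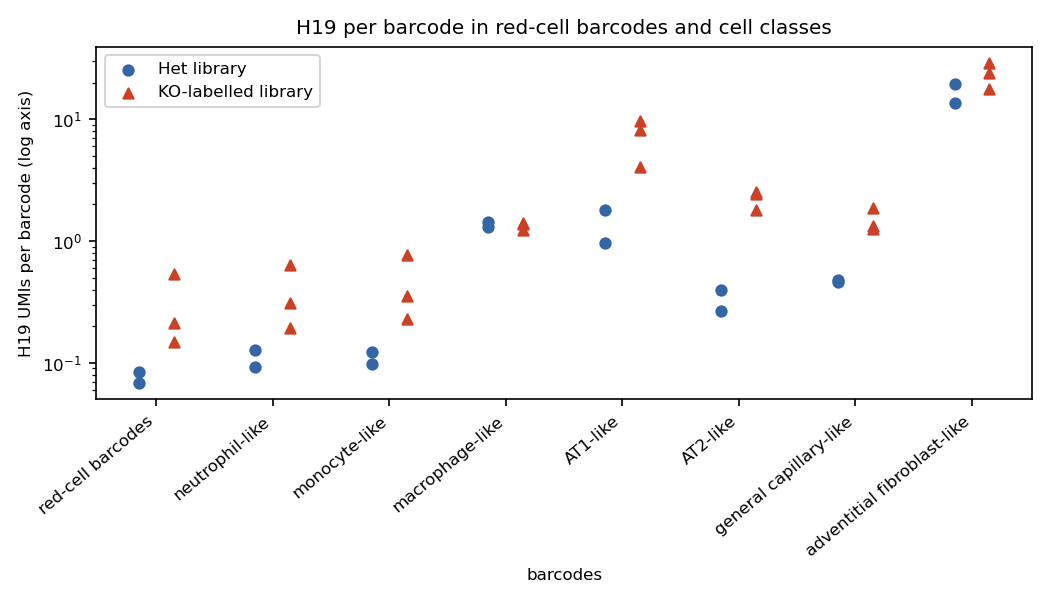
H19 UMIs per barcode on a log axis in red-cell barcodes and 7 cell classes, with 1 point per library (circles Het, triangles KO-labelled). Neutrophil-like and monocyte-like cells follow the red-cell barcodes library by library, whereas macrophage-like cells lie at 1.24 to 1.43 in all 5 libraries and AT1-like cells lie above the red-cell level in each.

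In endothelial sums 2 of 29 tested genes were called, beside 5.20% of all 11887 genes tested. Cdkn1c stood at 136 and 147 CPM against 283, 204 and 284 (0.86, SE 0.149, adjusted p = 0.0146), and Gnas at 1581 and 1879 against 3346, 2333 and 3508 (0.82, SE 0.168, adjusted p = 0.0284). Neither overlapped, and 11 of the 29 had an unadjusted p under 0.05, beside 20.6% of all genes. Gnas was also not called without KO1 (adjusted p = 0.0655). Neither call held without Het1, Het2 or KO3, with adjusted p from 0.07 to 0.247, nor with the replicate number as a block (0.11 and 0.17) or sex as a covariate (0.0801 and 0.0994).
Lymphatic-like cells moved with this result: there were 12 and 6 in the Het libraries and 37, 20 and 30 in the KO-labelled ones. They were rich in H19 (5559 to 7852 CPM), Igf2 (2241 to 3680 CPM) and Gnas (7019 to 8799 CPM), and held 20.5% and 30.4% of endothelial Gnas UMIs in the Het libraries against 50.4%, 27.5% and 56.4%. Without them, an alternative added after the data were seen, 5 genes were called: Cdkn1c (0.69, adjusted p = 0.00232), Gnas (0.54, adjusted p = 0.00585), H19 (1.22, adjusted p = 0.00688), Igf2 (0.89, adjusted p = 0.0155) and Peg10 (1.53, adjusted p = 0.021).
Aerocyte-like cells, the other capillary class, numbered 59 and 40 against 1, 2 and 1 and were too few to fit.

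General capillary-like cells, the largest endothelial class (197 to 311 cells), gave 5 calls among 27 tested genes, all higher, beside 6.52% of all genes tested. Peg10, a retrotransposon-derived gene, stood at 2.26 and 4.86 CPM against 11.4, 14.2 and 12.5 (1.87, SE 0.355, adjusted p = 0.00909), resting on 17 UMIs in the Het and 99 in the KO-labelled libraries. H19 stood at 54.1 and 46.4 CPM against 189, 89.6 and 103 (1.31, SE 0.270, adjusted p = 0.0143). Cdkn1c stood at 54.9 and 54.4 against 108, 89.6 and 99.9 CPM (0.85, adjusted p = 0.00173).
All 3 groups of values lay apart. Gnas stood at 1352 and 1400 CPM against 2269, 1900 and 2217 (0.63, adjusted p = 0.00199) and Grb10 at 201 and 232 against 325, 285 and 260 CPM (0.42, adjusted p = 0.0414). Mest, highest in this class, stood at 1768 and 1627 against 1887, 1895 and 2029 CPM (0.19, adjusted p = 0.209). Thinned shares of cells with H19 overlapped, at 11.4% and 4.25% against 24.6%, 10.3% and 17.2%, and coarser clusters gave H19 a change of 0.55 (adjusted p = 0.405). Left out in turn, Het1 ended all 5 calls and Het2 ended 4 of them (not Peg10), with adjusted p from 0.0555 to 0.414, and Grb10 was not called without KO2 (0.0677). With sex as a covariate Peg10, H19 and Grb10 were not called (0.101, 0.221 and 0.425).
Arterial-like cells gave 0 calls among 21 tested genes, beside 0.156% of all genes by edgeR, and 4 had an unadjusted p under 0.05, beside 10.2%.

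Mesenchymal cells, where most of the 36 genes are highest, gave 0 calls among 34 tested genes by edgeR, beside 0.0876% of all 13701. An unadjusted p under 0.05 was found for 3, beside 12.2% of all genes, and the median log2 fold change was 0.08. H19 stood at 1251 and 1421 CPM against 2033, 1409 and 1571 (0.32, adjusted p = 0.458), so the groups overlapped, with KO2 just under the upper Het value and KO1 the highest. Phlda2 and Ascl2 fell under the filter. The sums joined several classes, which were also fitted singly, and whether the difference varied between these classes was not tested.

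Alveolar fibroblast-like cells, the fibroblasts that lie along the alveoli (106 to 195 per library), gave 6 calls among 29 tested genes, beside 5.78% of all genes tested. Of these 6, 5 were lower, and of all 559 genes called in this class only 151 were higher. The median over the 29 was -0.22 against 0.01 for all genes. Summed markers of red cells (18336 and 26154 against 11736, 9374 and 15004 CPM) and of endothelium (74.6 and 46.4 against 34.0, 20.3 and 36.9 CPM) were lower in each KO-labelled library, with none of either 7 at 0, and their part in these values was not tested. Zim1 (chr7:6671269-6696450, minus strand) stood at 86.6 and 97.5 CPM in the Het libraries and at 45.3, 39.6 and 38.4 in the KO-labelled ones (-1.17, SE 0.150, adjusted p = 0.000308). Its neighbour Peg3, named after its values were seen, stood at 749 and 910 CPM against 578, 658 and 552 (-0.48, adjusted p = 0.0415). Zim1 is expressed from the maternal and Peg3 from the paternal copy. Usp29, the other gene of this locus tested, was not called (14.3 and 7.08 against 8.46, 4.95 and 6.98 CPM, adjusted p = 0.464).
Of the 4 genes of the Dlk1-Dio3 cluster tested in this class, Rian and Meg3 were called lower. Rian stood at 557 and 430 CPM against 286, 346 and 285 (-0.69, SE 0.138, adjusted p = 0.00786), and Meg3 at 4024 and 4150 against 2341, 3284 and 2469 (-0.60, SE 0.150, adjusted p = 0.0272). Mirg stood at 44.7 and 44.0 against 33.8, 34.6 and 28.4 CPM and was not called (-0.46, adjusted p = 0.175). Dlk1 overlapped, at 887 and 913 against 905, 866 and 813 CPM (-0.06, adjusted p = 0.832).
Mest was lower too, at 176 and 189 CPM against 114, 148 and 108 (-0.57, adjusted p = 0.0249). Airn, the noncoding RNA antisense to Igf2r, was the only called gene that was higher, at 75.9 and 59.0 CPM against 123, 103 and 108 (0.73, SE 0.152, adjusted p = 0.0107). Airn and Igf2r overlap on opposite strands, and whether the authors' counting used strand is not given in the sources used here. H19 and Igf2 overlapped between the groups in this class (-0.03 and 0.01).
These calls were fragile to cell filtering: under stricter limits (1000 or more genes, mitochondrial share up to 10%), 42 cells of this class were left in each Het library and none of the 6 was called, with Zim1 at -0.66 (adjusted p = 0.488). Under the other 14 alternatives Zim1 was always called. Het1 left out ended the calls of Rian, Mest, Meg3 and Peg3 (adjusted p 0.173, 0.127, 0.184 and 0.0922), and Het2 those of Airn, Mest, Meg3 and Peg3 (0.225, 0.275, 0.288 and 0.458). KO3 left out ended those of Mest, Meg3 and Peg3 (0.0753, 0.0693 and 0.0879), and sex as a covariate those of Meg3, Airn and Peg3 (0.069, 0.0815 and 0.0878).

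**Figure D5:**
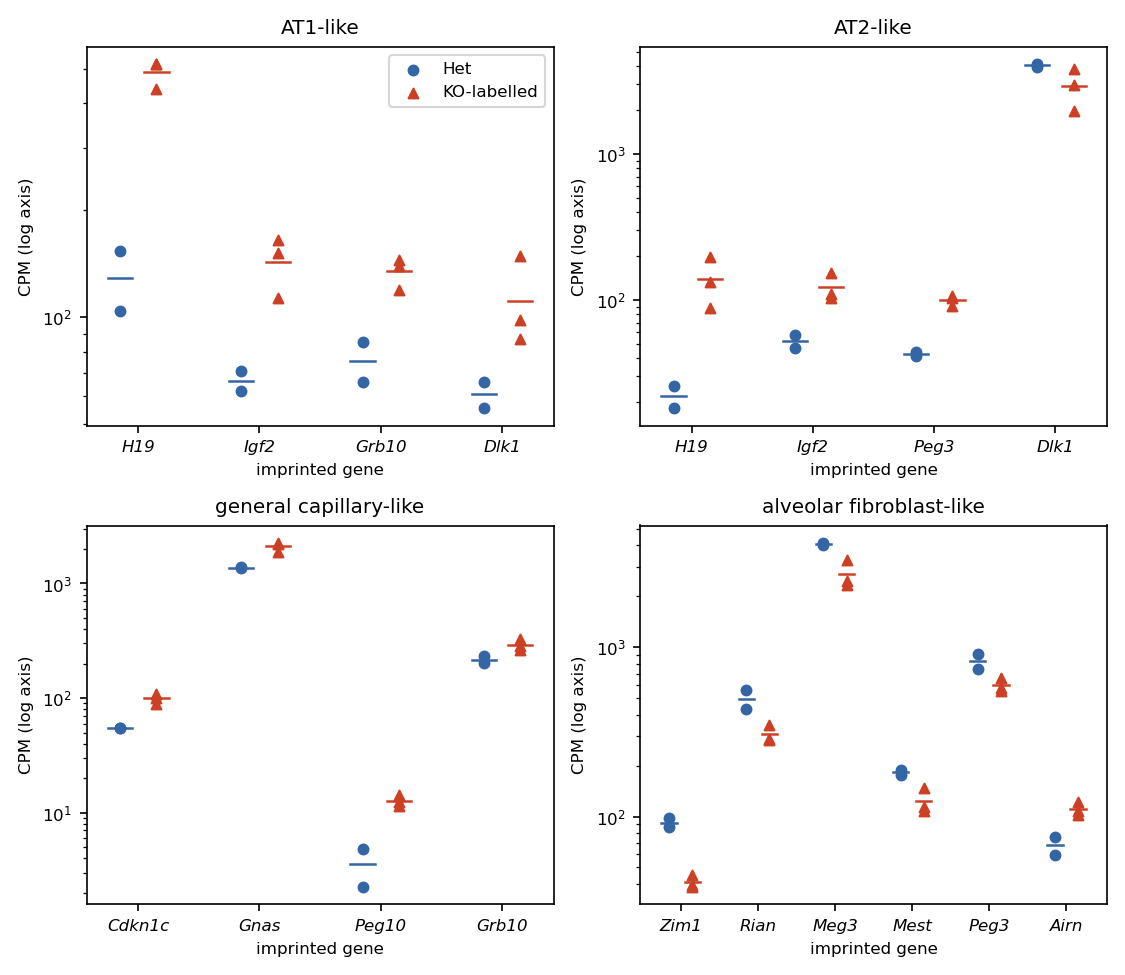
TMM-scaled CPM on log axes of imprinted genes in 4 cell classes, with 1 point per library (circles Het, triangles KO-labelled) and a bar at each group mean. The groups lie apart for each gene shown, narrowly so for Dlk1 in AT2-like cells, where KO1 is at 3785 CPM and Het2 at 3956 and the difference was not called.

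The other mesenchymal classes gave no calls by edgeR. Adventitial fibroblast-like cells gave 0 of 30 (beside 0.127% of all genes; 8 at an unadjusted p under 0.05, beside 8.73%), with Zim1 at 246 and 232 against 182, 193 and 208 CPM (-0.29, adjusted p = 0.488). Myofibroblast-like cells gave 0 of 26 (beside 1.03%; 3 unadjusted, beside 13.4%) and smooth muscle-like cells 0 of 30 (beside 0.132%; 4 unadjusted, beside 8.11%). Mesothelial-like cells gave 0 of 29 (beside 0 of all genes; 1 unadjusted, beside 7.37%). Whether Zim1 differed more in alveolar than in adventitial fibroblast-like cells was not tested.

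In immune sums 4 of 31 tested genes were called, beside 7.88% of all 13876, 2 higher and 2 lower. Kcnq1ot1, the noncoding RNA antisense to Kcnq1, stood at 276 and 265 CPM against 200, 206 and 205 (-0.41, SE 0.056, adjusted p = 0.00459). Igf2r stood at 7.66 and 7.20 against 3.68, 2.63 and 4.05 CPM (-1.10, SE 0.181, adjusted p = 0.00948), resting on 212 and 205 against 52, 56 and 115 UMIs. The groups lay apart for both.
Of the 2235, 2178, 1028, 1673 and 1886 immune cells, 1286, 1272, 494, 763 and 968 were in clusters with no class name. In these, Kcnq1ot1 stood at 331 and 318 CPM against 257, 278 and 275 and Igf2r at 7.36 and 6.55 against 2.45, 1.29 and 2.98, without TMM scaling. Macrophage-like cells gave Kcnq1ot1 at 165 and 180 against 123, 145 and 138 CPM. It was not lower in monocyte-like cells (49.4 and 41.6 against 71.4, 44.0 and 51.5 CPM) or neutrophil-like cells (9.61 and 16.3 against 14.9, 42.1 and 27.2 CPM), where the groups overlapped. For Igf2r the groups overlapped in macrophage-like, monocyte-like and neutrophil-like cells. In dendritic-like cells both genes were lower in each KO-labelled library. Kcnq1ot1 stood there at 94.3 and 89.9 against 82.3, 81.8 and 88.9 CPM. Igf2r stood at 10.6 and 14.1 against 2.06, 2.27 and 7.66 CPM, and fell under the low-count filter in that class. Without Het1 or without Het2 neither call in immune sums held (adjusted p from 0.0507 to 0.0759). Igf2r was also not called there with sex as a covariate (0.0945).

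For the 2 genes that were higher in immune sums, their level in red-cell barcodes and the mesenchymal markers were higher as well. The 7 mesenchymal markers summed to 34.4 and 49.3 CPM in immune sums against 76.1, 58.1 and 86.6, with 5 of 7 higher in all KO-labelled libraries and none at 0. H19 stood at 17.3 and 15.6 CPM against 78.6, 32.1 and 38.1 (1.56, SE 0.348, adjusted p = 0.0323), and Rian at 8.49 and 7.66 against 14.3, 10.2 and 12.4 (0.60, SE 0.148, adjusted p = 0.0467). Per cell, monocyte-like cells held 0.122 and 0.0976 UMIs of H19 against 0.772, 0.229 and 0.355, in the same library order as the red-cell barcodes. For Rian the red-cell barcodes held 0.0635 and 0.0505 UMIs against 0.145, 0.0959 and 0.108. The part of free RNA and of mesenchymal RNA in these values was not tested. Without Het1 or Het2, or with sex as a covariate, neither was called (adjusted p from 0.142 to 0.294), and Rian was also not called without KO1 (0.0545) or KO3 (0.102).
Macrophage-like cells were different: they held 1.30 and 1.43 UMIs of H19 per cell against 1.38, 1.24 and 1.40, above the red-cell level in every library and with no separation of the groups. They supplied 348 of 924 immune H19 UMIs in the Het and 1024 of 2874 in the KO-labelled libraries, and numbered 135 and 121 cells against 232, 246 and 286.
No class of immune cells gave a call by edgeR. Macrophage-like cells gave 0 of 20 (beside 1.05% of all genes; 2 at an unadjusted p under 0.05, beside 11.8%), monocyte-like cells 0 of 18 (beside 0.0428%; 5 unadjusted, beside 9.44%), neutrophil-like cells 0 of 17 (beside 0.0362%; 7 unadjusted, beside 10.1%) and dendritic-like cells 0 of 7 (beside 0.163%; 1 unadjusted, beside 7.07%).

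A test of whether the genotype difference itself differed between lineages called 3 of the 36 genes, beside 3.64% of all 15977 genes tested. For Gnas (adjusted p = 0.00393) the log2 fold change was 0.82 in endothelial cells, 0.15 in epithelial, 0.04 in mesenchymal and -0.07 in immune cells. For Igf2r (adjusted p = 0.00473) it was -1.10 in immune, -0.36 in endothelial, 0.21 in epithelial and 0.05 in mesenchymal cells. For Meg3 (adjusted p = 0.0132) it was 0.56 in immune, 0.06 in mesenchymal, -0.33 in epithelial and -0.62 in endothelial cells. Of these lineage values only Gnas in endothelial and Igf2r in immune cells were called. For H19, with 1.93 in epithelial and 0.32 in mesenchymal cells, the test gave adjusted p = 0.0747, and 0.0183 without the lymphatic-like cells. For Cdkn1c it gave 0.0678. Gnas was not called without Het1 (0.138), Igf2r without Het2 (0.0502) or Meg3 without Het2 (0.162).

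Partners of the IGF genes were taken from a list of 14 that included the receptors, binding proteins and RNA-binding proteins. In alveolar fibroblast-like cells 7 of 14 were called beside 5.78% of all genes, all lower. Of all 559 genes called in that class only 151 were higher. The 7 were led by the binding proteins Igfbp2 (623 and 734 CPM against 59.8, 151 and 123, a change of -2.61), Igfbp3 (-2.09) and Igfbp5 (-1.75). In AT2-like cells 3 of 11 tested were called beside 5.17%, all higher: Igfbp2 (2.88), the receptor Igf1r (1.00) and Igf2bp1 (0.80), which binds Igf2 mRNA. In AT1-like cells 3 of 12 were called beside 4.16%, with Igfbp2 (1.30) and Igfbp5 (1.09) higher and Igfbp7 (-0.74) lower. Igfbp2 therefore differed in opposite directions in the alveolar fibroblast-like and the 2 alveolar epithelial classes.
In immune sums 4 of 14 were called beside 7.88%, led by Igf1 (1.69) and Igfbp4 (1.13) higher and Irs2 (-0.63) lower. Endothelial sums gave 4 of 14 beside 5.20%, led by Irs1 (-2.13), Igfbp2 (1.65) and Igf2bp1 (0.86), and general capillary-like cells 2 of 13 beside 6.52%, Igfbp2 (1.49) and Igf2bp1 (1.14). Igf2bp1 was also the only one of 14 called in the whole library (0.61), beside 4.11% of all genes. Igfbp3 was the called partner in myofibroblast-like (-5.09) and adventitial fibroblast-like cells (-0.98), and Igf1 in smooth muscle-like cells (12.5 and 22.9 CPM against 57.3, 78.1 and 66.0).

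Of 18 factors that keep or write imprinting marks, 2 were called in the whole library beside 4.11% of all genes, both higher: Uhrf1 (0.41) and Trim28 (0.29), which brings silencing enzymes to ZFP57. General capillary-like cells gave 2 of 17 beside 6.52%, Zfp57 (20.3 and 22.5 CPM against 35.2, 35.1 and 35.1, a change of 0.72) and Trim28 (0.44). AT2-like cells gave 3 of 17 beside 5.17%, Uhrf1 (2.40), Zfp57 (1.19) and Trim28 (0.59), and immune sums 5 of 18 beside 7.88%, led by Dnmt3b (0.55), Uhrf1 (0.32) and Setdb1 (0.31). Alveolar fibroblast-like cells gave 1 of 17 beside 5.78%, Ezh2 (0.78). All these calls were higher in the KO-labelled libraries, and Uhrf1 and Dnmt1 also follow the cell cycle.
Among 40 further imprinted genes, 35 passed the filter in the whole library and 3 were called beside 4.11% of all genes, all lower: Atp10a (-0.72), Tspan32 (-0.71) and Pon2 (-0.40). Of all 730 genes called there, 201 were higher. Immune sums gave 5 of 27 beside 7.88%, led by Atp10a (-0.81), Ppp1r9a (0.73) and Tspan32 (-0.59). General capillary-like cells gave 3 of 23 beside 6.52%, with Bcl2l1 (-0.65) and Pon2 (-0.44) lower and Plagl1 (0.51) higher. Pon2 was also lower in endothelial sums (-0.53) and Axl in alveolar fibroblast-like cells (-0.77). The median of these further genes in the whole library was 0.03, beside 0.23 for the 36.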

How the data were processed

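The authors deposited raw UMI counts, as whole numbers in 1 matrix per library, made with Cell Ranger 4.0.0 and mm10 per the submitters' processing notes from 3′ libraries (Chromium v3.1). The annotation, strand setting and barcode filter are not given in the sources used here. Antisense partners overlap 16 of the 36 genes, and their reads may not be told apart.

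Cells were kept with 500 or more genes and a mitochondrial share up to 15%, and doublets were removed by similarity to simulated doublets at 0.8% per 1000 cells (78 to 186 per library). Cells were clustered with scanpy 1.11.5 (2000 variable genes without the 36, 30 components, 15 neighbours, Leiden resolution 1) and named from marker lists. The embryo was the replicate: UMIs were added up within each library by lineage or class and tested with edgeR 4.0.16 (quasi-likelihood, TMM, low-count filter, two-sided, Benjamini-Hochberg over all genes). The labels do not say whether embryos were littermates, and p-values measure the spread between these embryos. The scripts were tested on simulated data. Levels by class use classes of at least 20 cells and CPM without TMM, and planned class fits at least 50 cells.

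The genes and lists were chosen with earlier results of these data known. Named with values were genes called in the whole library or a lineage and the 8 highest in the whole library, and in each class the 3 called genes of largest change. Of other lists, up to 3 called genes per fit are named. Alternatives were DESeq2 1.42.0, library size alone, no filter, a replicate block, a sex covariate, each library left out, other resolutions, doublets kept, stricter cell filters and mixed cells left out. The matrices of all 5 libraries were used whole, and coordinates are from GENCODE M21.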

Additional observations from a re-analysis of the deposited data

Results flagged for a closer look

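For 3 genes the difference between Het and KO-labelled lungs itself differed between the epithelial, endothelial, mesenchymal and immune sums, by edgeR's test of the genotype by lineage terms with the library as a block. Gnas had an adjusted p of 0.00393, and its difference was called in endothelial sums. Igf2r had an adjusted p of 0.00473, and its difference was called in immune sums, where it was lower. Meg3 had an adjusted p of 0.0132 and was called in no lineage by itself. Gnas missed the threshold without Het1 (0.138), Igf2r without Het2 (0.0502) and Meg3 without Het2 (0.162), and each passed it when any other library was left out.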

How the results depend on the processing

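The 32 called values gave 472 values over the alternatives run: 346 kept their direction and call, 125 kept the direction without the call and 1 reversed (Dlk1 in AT1-like cells with finer clusters, -0.19). H19 in AT1-like and H19, Igf2 and Peg3 in AT2-like cells were called in every alternative run. Without Het1 25 of 32 calls were lost, without Het2 21, and with sex as a covariate 20. The count of 36 genes called in the whole library, 1, became 7 with DESeq2 and 0 without erythroid and immune cells, without mixed cells, with the replicate number as a block or with sex, and 0 to 2 with a library left out. In epithelial sums 2 became 6 with doublets kept, 0 without mixed cells, 5 with no low-count filter, 4 with the replicate block, 5 and 4 at resolutions 0.5 and 2, 1 with sex and 1 with stricter cell filters, and 1 to 3 with a library left out. In endothelial sums 2 became 5 without lymphatic-like cells, 5 without mixed cells, 7 with no filter, 0 with the block and 0 with sex, and 0 to 4 with a library left out. In immune sums 4 became 1 with sex and 0 to 5 with a library left out, and in mesenchymal sums 0 stayed 0 in all alternatives run. Over class sums 15 calls became 30 with doublets kept, 34 with no filter, 26 at resolution 2, 8 with sex, 9 with stricter cell filters, 23 with classes of at least 20 cells, and 3 to 19 with a library left out. The lineage test's 3 became 8 without mixed cells and 1 to 4 with a library left out. Calls among all genes moved as well. In epithelial sums 30 of 12950 became 1771 of 14230 with doublets kept and 0 of 11816 without mixed cells. At resolutions 0.5 and 2 they became 1164 of 15044 and 1254 of 14247. In AT2-like cells 487 of 9413 became 2237 of 12150 with doublets kept and 490 of 8709 without mixed cells. At resolutions 0.5 and 2 those were 2330 of 13948 and 2642 of 10914. The cause of these shifts was not tested. Deviations from the group mean had correlations of -0.12 and -0.20 over 11124 genes between libraries of replicate numbers 1 and 2. With only 2 Het libraries, the deviations of Het1 and Het2 mirror each other. These values therefore cannot decide whether replicate numbers pair the libraries. With library size alone the share of higher calls among all called genes moved from 40.4% to 51.5% in AT1-like cells, 40.04% to 65.2% in AT2-like cells and 42.5% to 61.7% in immune sums, and the median of all genes was 0.12 in neutrophil-like cells; every called imprinted gene kept its direction.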
